A study of Talpa occidentalis with 2 samples.

Results

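The histone genes of the Iberian mole, Talpa occidentalis, are described here as the gene annotation of build talOcc3 lists them. Members were the models whose gene symbol, read without copy and low-confidence suffixes, begins with HIST1H to HIST4H, H1F, H2AF, H2BF or H3F, the older human-style histone names. The rule found 44 of 23336 gene models, under 21 of 16075 symbols. Of these, 30 models under 13 symbols carry HIST names, which human nomenclature used for replication-dependent genes and is called HIST-named below. The other 14 models, under 8 symbols, carry names of histone variants and are called variant-named. The names came with the annotation, so every grouping by name below describes what the annotation calls a model, not a measured property of the gene.

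The annotation was deposited with a chromosome conformation capture series (4C-seq, in which the sequenced partners of 1 chosen viewpoint are read) on the FGF9 transcription start. That series has 1 forebrain and 1 hindlimb library of wild-type embryos of embryonic day 15. The annotation holds no value for either library, so no forebrain level and no hindlimb level of a histone gene is given. All values belong to 1 annotated genome, there are no replicates, and comparisons are descriptions without a test.

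Histones are the proteins around which DNA is wound: H2A, H2B, H3 and H4 form the core of the nucleosome, and H1 binds the linker DNA at its entry and exit. In mammals, most replication-dependent histone genes lie in clusters, lack introns, and give mRNAs that end in a stem-loop in place of a poly(A) tail. Variant genes lie mostly alone, many carry introns, and their proteins replace the canonical ones outside S phase or in special chromatin.

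Most HIST-named genes lay in clusters, and variant-named genes lay outside them. A cluster was counted where at least 3 member models followed each other with gaps of at most 100 kb, and 4 clusters held 27 of the 30 HIST-named models (90%) and 0 of the 14 variant-named models. HIST-named models sat on 6 scaffolds, and variant-named models on 11, where the 2 H2BFWT models lay together. Among the HIST-named models, 10 under 6 symbols were HIST1, 12 under 6 symbols were HIST2 and 8 under 1 symbol, HIST3H2A, were HIST3. No model analysed here carried a HIST4 name.

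**Figure D1:**
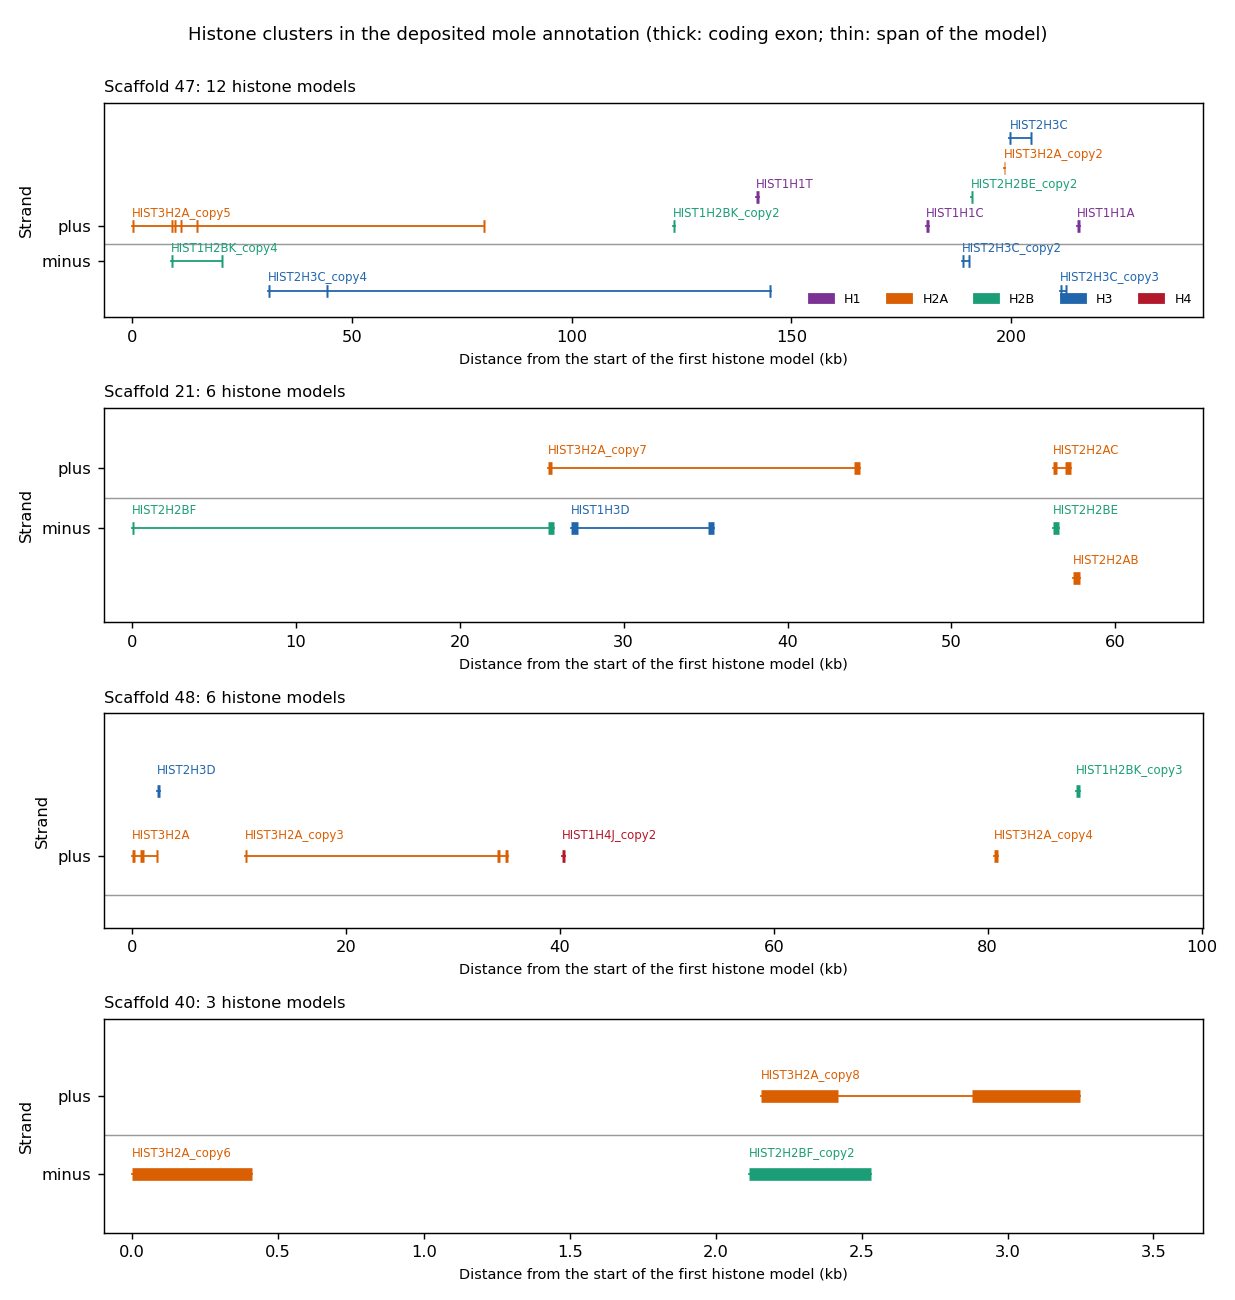
The 4 histone clusters, each on its own scale, with distance in kb from the start of the first histone model on the horizontal axis, the plus and minus strand above and below the grey line, and colour by histone type. Thick bars are coding exons on a thin line for the span of the model, short exons are drawn at a minimum width, and rows within a strand are stacked only to keep labels apart. The cluster on scaffold 47 is 216 kb long with 12 models, while that on scaffold 40 is 3.25 kb long with 3.

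The cluster with the most models spanned 216 kb of scaffold 47, from 4422447 to 4638073. Its 12 models under 7 symbols comprised 3 H1, 2 H2A, 3 H2B and 4 H3 models and 0 H4 models, of which 8 lay on the plus strand and 4 on the minus strand. HFE, a regulator of iron uptake, lay inside it at 4577301 to 4579319. On its left the nearest named genes were the butyrophilins BTN2A2, at 65.5 kb, and BTN1A1. On its right stood the olfactory receptor OR2J3, at 31.4 kb, and a copy of the TRIM38 gene. The first model was HIST3H2A_copy5 (4422447 to 4502441, plus strand) and the last was the linker gene HIST1H1A. The annotation of scaffold 47 ended 204 kb beyond the cluster. A lone H2B model, HIST1H2BK, lay on the same scaffold at 4062734 to 4063164, 359 kb from the cluster and 36.3 kb from PRSS16, a serine protease gene of the thymus.

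Scaffold 48 held 6 models under 4 symbols between 767539 and 856156, all on the plus strand. They comprised 3 H2A models, 1 H2B, 1 H3 and 1 H4 model, and this was the 1 cluster with an H4-named model. It began with HIST3H2A (767539 to 769844) and ended with HIST1H2BK_copy3 (855758 to 856156). The olfactory receptors OR2B2, at 8.63 kb, and OR2G6 lay on the left. On the right were the zinc finger genes ZNF25_copy10, at 162 kb, and ZNF429. All 6 histone models fell within the span of a ZNF43 model on the opposite strand, which reached from 760286 to 983201 over 4 coding exons.

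The cluster on scaffold 21 spanned 57.8 kb, from 42387280 to 42445122, with 6 models under 6 symbols. It held 3 H2A, 2 H2B and 1 H3 model, 2 on the plus strand and 4 on the minus strand. HIST2H2BF (42387280 to 42413036) was the first and HIST2H2AB (42444721 to 42445122) the last. FCGR1A, the high-affinity receptor for immunoglobulin G, lay inside the intron-spanning extent of HIST2H2BF. BOLA1 followed at 3.65 kb and SV2A, a synaptic vesicle protein gene, at 6.87 kb. A model without a gene symbol, at 10.9 kb, and LOC105369199 stood on the left.

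The shortest cluster lay on scaffold 40, from 342188 to 345436, and its 3.25 kb held 2 H2A models and 1 H2B model. Its models were HIST3H2A_copy6 (342188 to 342598, minus strand), HIST2H2BF_copy2 (344303 to 344719, minus strand) and HIST3H2A_copy8 (344342 to 345436, plus strand). SCGN, a calcium-binding protein gene, was 19.7 kb away on the right with CARMIL1 beyond it, and copies of the RNA helicase gene DDX21 lay on the left, the nearest at 14.5 kb.

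The number in a HIST name is meant to tell the locus, and here it did not follow place. Scaffold 47 carried 5 HIST1, 5 HIST2 and 2 HIST3 models, scaffold 48 carried 2, 1 and 3 of these, and scaffold 21 carried 1, 4 and 1. Scaffold 40 carried 0 HIST1 models, 1 HIST2 and 2 HIST3 models. The genes around them were compared with lists of the genes that flank each human locus. Of 17 genes listed for HIST1, 12 had a model within 1 Mb of a histone model under the listed symbol, on scaffolds 40 and 47, and 13 when LRRC16A is read by its current symbol CARMIL1. These included SLC17A4, a phosphate transporter family gene 21 kb from the scaffold 40 cluster, and on scaffold 47 ABT1 at 164 kb and ZNF184 at 128 kb. A symbol counted if 1 of its models lay so near, and TRIM38 had 63 models, BTN1A1 14 and SLC17A4 4. The share of all symbols that lie so near a histone model is not given here. All 7 genes listed for HIST2 lay within 1 Mb of the scaffold 21 cluster, with the splicing factor gene SF3B4 at 28.2 kb. For HIST3, 2 of the 4 listed genes had a model, and 0 lay near a histone model. Among them, TRIM11 had 1 model on scaffold 2593, away from any histone model. The 8 HIST3H2A models lay beside genes listed for HIST1 or HIST2 or, on scaffold 48, beside neither list within that distance. All 5 genes listed around HIST4H4 and with a model, among them WBP11 and GUCY2C, lay beside the variant gene H2AFJ on scaffold 31.

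RefSeq, whose gene table is of the later assembly MPIMG_talOcc4v2.1, listed 0 of the 21 member symbols under the same name and the 3 HIST-named linker genes under their current names. Current names of the other members were not looked up. In it the order SCGN, H1-1, H1-2, HFE, H1-6, H1-4, BTN1A1, ABT1, PRSS16, ZNF184, H1-5, ZNF165 ran along 1 sequence. In the deposited build ZNF165, which is on no flank list used here, lay left of the scaffold 48 cluster, at 586713 to 592920. Genes from deposited scaffolds 40, 47 and 48 therefore share a sequence in the later build. H1-1, H1-2 and H1-6 are the current names of HIST1H1A, HIST1H1C and HIST1H1T. The deposited order HIST1H1T, HFE, HIST1H1C, HIST1H1A matches it read backwards.

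Coding structure was counted next. A single coding exon was found in 16 of 30 HIST-named models (53.3%, 95% Wilson interval 36.1 to 69.8) and in 7 of 14 variant-named models (50%, 26.8 to 73.2), against 24.7% of all 23336 models. These intervals cover counting error only, and models that share a name or a source sequence are not independent. The 2 shares differed by 3.33 percentage points, with an interval from -25.5 to 31.8. With 1 model per symbol, the one of highest score, the shares were 8 of 13 (61.5%) and 2 of 8 (25.0%), a difference of 36.5 points. Ties went to the longer coding length. HIST3H2A, with 3 exons, was thus taken over the single-exon HIST3H2A_copy2, both with a score of 569, so the HIST-named share depends on this choice.

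The count looked different when the match of each model to a known transcript was read exon by exon. Each transcript record names a target transcript of another annotation and the stretch of the model that matched it. Among the 14 HIST-named models with more than 1 coding exon, 11 had at least 90% of the match inside 1 exon, of 334 to 421 bases. None of the 7 variant-named models with more than 1 coding exon did, and their best exon held 17.7% to 53.3% of the match. In 3 models the matched stretch was far longer than the stretch of the target, so it spans unmatched bases and their share per exon is not measured well. These were HIST1H2BK_copy4, with 429 model bases against 276 target bases, and H2BFWT and H2BFWT_copy2, with 677 and 676 against 260. In the other 41 models the stretches differed by at most 17 bases, and without the 3 the counts were 11 of 13 HIST-named and 0 of 5 variant-named multi-exon models. Over all multi-exon models with a recorded match the share was 6.47%, made up of 21.6% of those from exonerate, 29.9% from ALN and 3.15% from EVM. Counting single-exon models together with these gave 27 of 30 HIST-named models (90%) and 7 of 14 variant-named models (50%), against 29.5% of all models. This count was chosen after the values were seen.

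The 3 HIST-named exceptions were HIST1H3D, HIST2H3C_copy5 and HIST1H2BK_copy4, whose best exon held 51.6%, 61.9% and 64.3% of the matched stretch. HIST1H3D (42414073 to 42422797, scaffold 21, minus strand) joined exons of 388 and 410 bases, and 789 of its 798 coding bases matched the target (98.9%). HIST2H3C_copy5 was the only model on scaffold 12314, at 80 to 1560, with exons of 88 and 233 bases. HIST1H2BK_copy4 joined exons of 276 and 153 bases on scaffold 47, the first as long as its target stretch of 276 bases.

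How a model was made moved with these counts. Exonerate, a program that aligns 1 known sequence to the genome, made 28 of 30 HIST-named models (93.3%) and 8 of 14 variant-named models (57.1%), against 25.5% of all models. EVM, which combines several lines of evidence, made 0 HIST-named models and 5 variant-named ones, and a source named ALN made 2 and 1. Over the whole annotation, 79.4% of exonerate models had a single coding exon, 40.5% of ALN models and 0.494% of EVM models. Among the histone models these were 20 of 36 from exonerate, 3 of 3 from ALN and 0 of 5 from EVM. Without the 3 models of overlong matched stretch, the 13 multi-exon HIST-named models all came from exonerate and the 5 variant-named ones all from EVM. Name and source cannot be told apart in that comparison. The part of the model source in the exon counts was not tested.

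Coding length is described by histone type, since the 5 types differ in protein size. HIST-named models had a median coding length of 430 bases (303 to 1324) and variant-named models one of 426 bases (174 to 1119), against 1011 bases over all models. The length was a multiple of 3 in 28 of 30 HIST-named and 12 of 14 variant-named models, against 87.8% of all models. The exceptions were HIST1H2BK at 431 bases, HIST3H2A_copy5 at 1324, H2BFWT_copy2 at 781 and H3F3A_copy5 at 349.

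**Figure D2:**
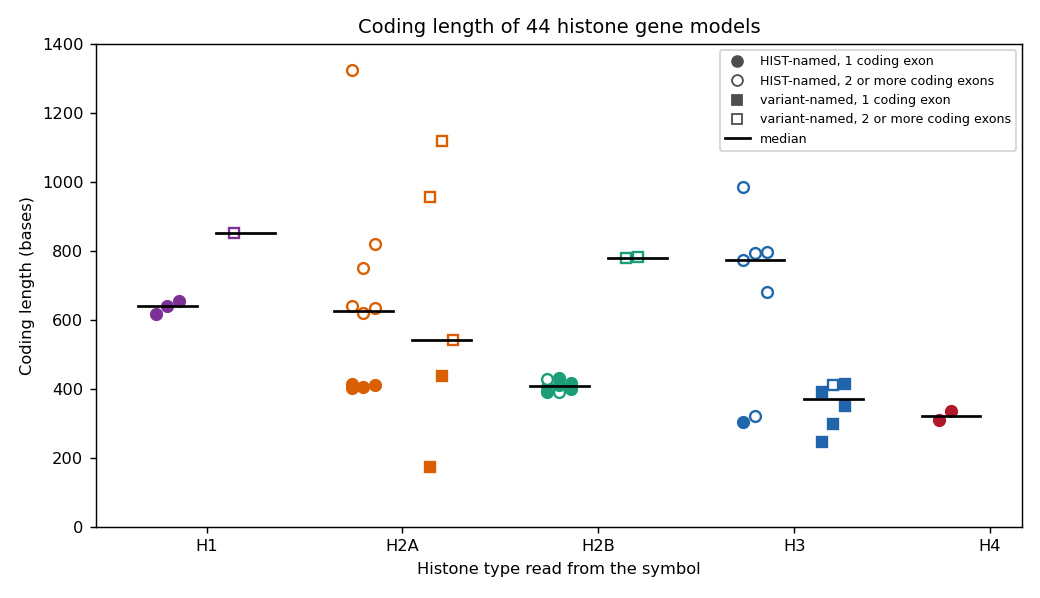
Coding length in bases of each histone model by histone type, with HIST-named models (circles) left of variant-named ones (squares), filled for 1 coding exon and open for several, and a bar at the median of each group. The HIST-named single-exon models sit in narrow bands by type, at 618 to 654 bases for H1 and 390 to 431 for H2B, while multi-exon models spread up to 1324 bases.

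The 3 HIST-named linker H1 genes had a median coding length of 639 bases, and all had a single exon. HIST1H1T, the testis-specific H1 of male germ cells, had 618 coding bases at 4564361 to 4564978 on scaffold 47. HIST1H1C, a somatic linker histone found in most tissues, had 639 bases at 4603076 to 4603714. HIST1H1A, another somatic subtype, had 654 bases at 4637420 to 4638073. All 3 lay on the plus strand, and their starts were 38.7 kb and 34.3 kb apart. H1FOO, the linker histone of oocytes, lay alone on scaffold 12 at 6880092 to 6881384 with exons of 273 and 579 bases. Its 852 coding bases were more than any HIST-named H1 had, and 59.5% of them matched the target.

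HIST-named H2A models numbered 10, with coding lengths from 402 to 1324 bases and a median of 627. Only 4 had a single exon, and these lay between 402 and 414 bases. The matched stretch was much more even, at 367 to 391 bases with a median of 372. The shortest, HIST2H2AB, was 1 exon of 402 bases. The longest, HIST3H2A_copy5, joined 6 exons of 304, 278, 368, 155, 108 and 111 bases over 80.0 kb, of which the 368-base exon held the match and 28.1% of the coding bases were matched. Extra exons in the H2A models had a common form. In 6 models the matched exon of 366 to 418 bases was preceded by an exon of 248 to 278 bases, and the intron between them was 450 to 526 bases long in 5 of the 6 and 18398 bases in HIST3H2A_copy7. In HIST2H2AC and in copies 5, 7 and 8 of HIST3H2A, the preceding exon overlapped a coding exon of an H2B model on the opposite strand. It held 0 to 4 matched bases there. These 6, HIST3H2A with its copies 3, 5, 7 and 8 and HIST2H2AC, and the single-exon H2AFJ were all built on 1 source sequence.

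HIST-named H2B models were compact: 8 models of 390 to 431 coding bases with a median of 408, of which 6 had a single exon. HIST2H2BE_copy2, at 390 bases, and HIST1H2BK, at 431, marked the range. HIST2H2BF also had 390 bases, split into exons of 377 and 13 bases by an intron of 25367 bases within which FCGR1A lies. The H2B variant H2BFWT, a sperm histone gene in human, had 2 models on scaffold 32, of 780 and 781 bases. H2BFWT (15717657 to 15728818, plus strand) and H2BFWT_copy2 (15691805 to 15752696, minus strand) overlapped over 11162 bases with exons of 288, 153 and 339 bases against 288, 153 and 340 bases.

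HIST-named H3 models numbered 7, and 1 of them, HIST2H3D on scaffold 48, had a single exon, of 303 bases. The other 6 had 2 or 3 exons and up to 984 coding bases, so the median was 774 bases. That upper value belonged to HIST2H3C_copy4 (4453336 to 4567694, scaffold 47), whose exons of 313, 357 and 314 bases spanned 114 kb with 346 bases matched (35.2%). HIST2H3C itself joined exons of 421 and 353 bases, HIST2H3C_copy2 exons of 389 and 406, and HIST2H3C_copy3 exons of 347 and 334. H4 was represented by 2 models under 1 symbol, both of a single exon. HIST1H4J had 336 coding bases and lay alone on scaffold 18, at 36326296 to 36326631 and 5.39 kb from PSMA1, a proteasome subunit gene. HIST1H4J_copy2 had 309 bases in the scaffold 48 cluster, and in both models 308 bases of the target were matched.

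Variant H2A genes ranged most in structure. H2AFY and H2AFY2 encode macroH2A proteins, which join an H2A domain to a large macro domain and are enriched on the inactive X chromosome. H2AFY, on scaffold 3 at 57767740 to 57828320, had 7 coding exons of 172, 107, 198, 111, 100, 90 and 179 bases, 957 in all over 60.6 kb. H2AFY2, on scaffold 11 at 20685287 to 20704693, had 8 coding exons of 172, 107, 198, 111, 100, 90, 175 and 166 bases, 1119 in all over 19.4 kb. The first 6 exons of both, 778 bases together, were equal in length exon by exon. H2AFV, an H2A.Z protein gene, had 5 exons of 159, 78, 114, 130 and 62 bases on scaffold 12 at 54732358 to 54740758, and 70.9% of its 543 bases matched. H2AFX, whose protein is phosphorylated around DNA double-strand breaks, was 1 exon of 174 bases on scaffold 14 at 17752951 to 17753124, matched to bases 74 to 247 of its target. H2AFJ was 1 exon of 438 bases on scaffold 31 at 12716076 to 12716513.

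H3F3A encodes the replacement H3 laid down outside S phase, and 6 models on 6 scaffolds carried its name. The model with the highest score, 716, had 3 exons of 128, 154 and 129 bases, 411 in all, on scaffold 14 at 50906597 to 50912215. The score is the one deposited for the match with the target, its formula was not found in the labels or headers, and it is compared only between models of 1 symbol. The 5 copies each had a single exon. H3F3A_copy2, on scaffold 19, had 414 bases and 89.0% of the highest score. Copies 3 to 6, on scaffolds 25, 58, 8 and 24, had 246, 390, 349 and 297 bases and 55.6%, 51.5%, 48.2% and 45.0% of it. The multi-exon model thus had the highest score, and the copies with 1 exon had lower ones. Target stretches differed too, at 411 bases for that model and 413 for copy 2. They were 242, 386, 340 and 301 bases for copies 3 to 6, and the score was not set against this length.

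Several histone names were used for more than 1 model. At least 2 models stood behind 6 of 13 HIST-named symbols (46.2%) and 2 of 8 variant-named symbols (25.0%), against 14.6% of all symbols. HIST3H2A had 8 models on 4 scaffolds, H3F3A 6, HIST2H3C 5 on 2 scaffolds and HIST1H2BK 4 on 2 scaffolds. HIST1H4J, HIST2H2BE, HIST2H2BF and H2BFWT had 2 models each, and the other 13 symbols had 1. Copies of 1 name differed in score. The score was not set against the length of the target stretch, which also differed between some copies. It was 231 bases in HIST2H3C_copy5 against 411 in HIST2H3C, and 276 in HIST1H2BK_copy4 against 430 in HIST1H2BK. The lowest copy had 82.4% of the best score in HIST3H2A, with scores of 469 to 569, and 54.2% in HIST2H3C, with 336 to 620. It had 67.0% in HIST1H2BK, 79.1% in HIST2H2BF, 93.9% in H2BFWT, 94.2% in HIST2H2BE and 98.5% in HIST1H4J. Replication-dependent core histone genes of 1 type encode near-identical proteins in mammals. A HIST name shared by several core histone models thus does not show that they are copies of 1 mole gene. Whether the models under 1 variant name are copies of 1 gene was not examined.

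**Figure D3:**
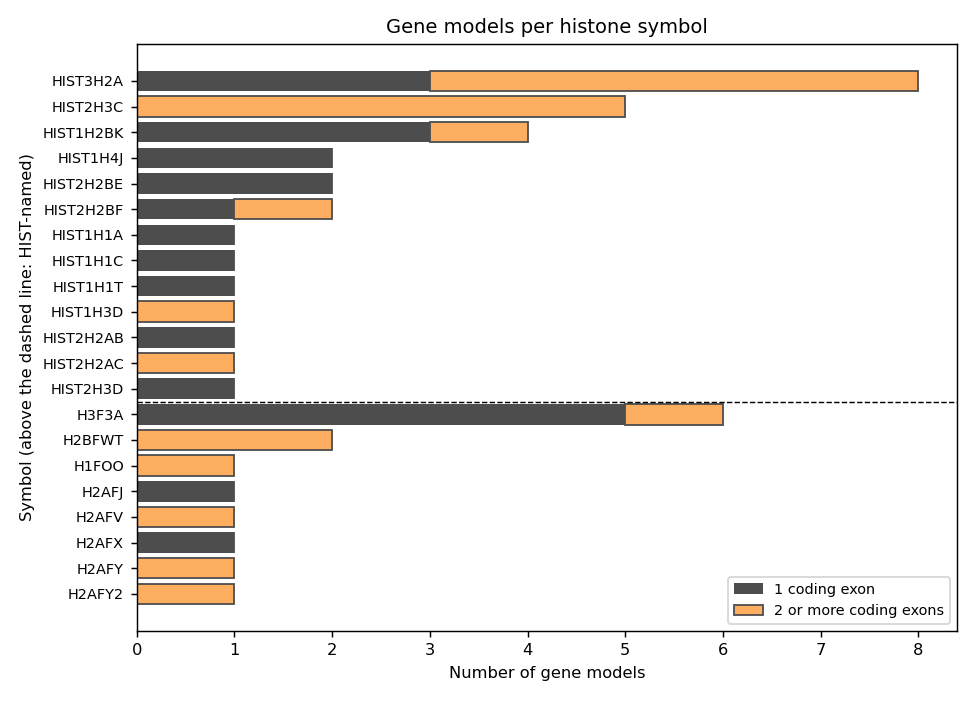
Number of gene models per histone symbol on the horizontal axis, 1 bar per symbol, with HIST-named symbols above the dashed line and variant-named ones below it, and each bar split into models of 1 coding exon (dark) and of several (light). HIST3H2A has 8 models, 3 of them with 1 exon, and H3F3A has 6, 5 of them with 1 exon.

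One source sequence also stood behind several names. The 36 exonerate models rested on 20 source sequences, and 5 of these were used for at least 2 symbols, 19 models in all. The H2A sequence above served HIST3H2A, HIST2H2AC and H2AFJ. Others served HIST1H2BK with HIST2H2BE, H2BFWT with HIST1H2BK_copy4, HIST1H3D with HIST2H3C, and H3F3A with HIST2H3C. A HIST name and a variant name thus shared a source sequence in 3 of the 5 sets.

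Some neighbouring histone models lay head to head. Of 9 overlapping pairs of models, 9 were on opposite strands, and 4 of them shared coding bases. HIST2H2BE and HIST2H2AC on scaffold 21 shared 255 coding bases, and HIST2H2BF_copy2 and HIST3H2A_copy8 on scaffold 40 shared 267. HIST2H2BF and HIST3H2A_copy7 shared 254, and HIST3H2A_copy5 and HIST1H2BK_copy4 shared 153. In all 4 pairs the shared bases of the H2A model lay in the exon before its matched exon. That exon held only 0 to 4 bases of the match. When only the exon with most of the match was kept, 3 pairs faced away from each other within 2 kb. HIST2H2AC and HIST2H2BE were 315 bases apart, HIST3H2A_copy8 and HIST2H2BF_copy2 345 bases, and HIST2H3C_copy2 and HIST2H2BE_copy2 310 bases. Divergent H2A and H2B genes with a shared promoter are a known arrangement in mammals, and 2 of the 3 pairs were of these types.

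Genes that make and place histones mostly had models of several coding exons, as did the annotation, where 24.7% of all models had a single one. Of 28 listed genes, 27 had a model, with a median of 10 coding exons, against 5 over all models. CENPA, the centromeric H3 variant, had none analysed here under that name although the RefSeq table lists it. SLBP, which binds the stem-loop of histone mRNAs, had 10 coding exons on scaffold 10 and a second model of 1 exon and 114 bases on scaffold 11179. NPAT, which activates replication-dependent histone genes, had 17 exons on scaffold 37. HINFP, an activator of H4 genes, had 9 exons on scaffold 14, 29.4 kb from H2AFX. HIRA and DAXX, chaperones of the replacement H3, had 26 and 7 exons, and CHAF1A and CHAF1B, subunits of the complex that places new H3 and H4 behind the replication fork, had 14 and 13. ANP32E, a chaperone that removes H2A.Z, had 8 exons on scaffold 21 and a second model of 1 exon on scaffold 11. LSM10, part of the particle that trims histone mRNA ends, and CSTF2T were the 2 listed genes with a single coding exon.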

How the data were processed

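The 4C-seq libraries, 1 from forebrain and 1 from hindlimb, were grouped by tissue from their labels. The submitters' processing notes name BWA, and no version was found. No contact values were analysed here, so depth is unknown. The deposited annotation of build talOcc3 gives start, end and strand of genes, transcripts and coding exons. The deposited score of a transcript was read as given by the authors. How it was computed was not stated there. Models came from EVM, exonerate or ALN, per the file's second column.

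Members, gene lists and counting rules were chosen with earlier results of these data known. Coding exons and coding length came from the coding records, and gaps were measured edge to edge. All variant-named and HIST2 or HIST3 symbols are named. Among HIST1, linker genes, cluster ends, the symbols with most models, those with several exons and the extremes of each type are named, with cluster neighbours and listed genes. Some listed and neighbouring genes are not reported here. Python 3.11.15, pandas 2.3.3 and scipy 1.17.1 were used. Routines were tested on simulated data. Alternatives were other gap limits and cluster sizes, other length minima, 1 model per symbol and the matched exon alone. Further ones left out low-confidence models, merged overlapping models on 1 strand, or took a span within 10 bases of the coding length as a single exon.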

Additional observations from a re-analysis of the deposited data

How the results depend on the processing

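No paired analysis was possible because each tissue has 1 library and the annotation holds no value for either. Alternatives were run for 13 results and not for the count of supply genes. Of 54 alternative values, 4 left the 95% interval of the reported share or difference and 0 reversed. Others stayed within that interval, within 1 SD of the models for a median length, or within 1.5 times for a count, which are wide margins here. Some alternatives could not move. The members included 0 with a low-confidence suffix, overlapping models lay only on opposite strands, and all introns were over 10 bases. Leaving out low-confidence models, merging overlaps and comparing span with coding length thus repeated the reported values, which is no sign of stability. The H2A median was 376 bases over the matched stretch, against 621, and the H3 median 592.5 with 1 model per symbol, against 411. On scaffolds whose last gene model ended at 1 Mb or beyond, the share difference was 9.02 points. Taking 1 model per symbol, the single-exon share of variant-named genes was 25.0%, against 50% over all models, because the H3F3A copies drop out. The difference between HIST-named and variant-named shares was then 36.5 percentage points, against 3.33. Counting models with the match in 1 exon, an alternative chosen after seeing the data, gave 90% of HIST-named models, against 53.3%, and a difference of 40 points, since exons outside the match no longer count. With at least 2 models in a cluster there were 5 clusters, against 4, the added one being the H2BFWT pair. The annotation of 1 genome, without sequence, does not tell genes from pseudogenes or missing genes from unassembled ones.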

Other observations

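Short genes without a symbol stood between the landmarks of the clusters in the later build. Between H1-1 and BTN1A1 the RefSeq table listed 27 protein-coding genes, of which 15 had no symbol and spanned under 600 bases. From HIST1H1A to BTN1A1 the deposited annotation had 12 histone models, which cover an unlike set. They include HIST1H1A, the boundary itself, and HIST1H1C and HIST1H1T, which RefSeq lists under symbols. Between FCGR1A and BOLA1 the RefSeq table listed 8, of which 5 had no symbol and spanned under 600 bases. The deposited annotation had 5 histone models wholly within that interval. These leave out HIST2H2BF, whose exon of 13 bases lies beyond FCGR1A but whose exon of 377 bases lies between FCGR1A and BOLA1. Between PRSS16 and ZNF165 10 of 41 were of that kind, and between ABT1 and PRSS16 3 of 8. Between WBP11 and GUCY2C, around the deposited H2AFJ, 0 of 1 was. With a limit of 1000 bases the numbers were 19 of 27, 7 of 8, 18 of 41, 7 of 8 and 0 of 1, in the order given. The table does not say what these genes encode, and both limits were chosen after seeing the data.

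Outside the histone names, 2 models without a symbol rested on source sequences of named histone models. One lay on scaffold 47 at 4062045 to 4065274 on the minus strand, across HIST1H2BK, with 3 coding exons and 945 coding bases on the H2A source sequence. The other lay in the scaffold 47 cluster at 4518266 to 4518886 on the plus strand, with 534 coding bases in 2 exons, and shared its source sequence with HIST1H4J. No H4-named model lay in that cluster. No model analysed here carried the names H1F0, H1FX, H2AFZ or H3F3B, those of the other common replacement histones.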
